A study of Mus musculus with 12 samples.

Results

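The genes described here make up the MHC class II antigen presentation pathway: H2-Aa, H2-Ab1, H2-Eb1, H2-DMa, H2-DMb1, Cd74, Ciita and Ctss. These 8 genes were taken by symbol from the 57010 genes of the count table and followed through all 12 RNA-seq libraries. All 8 passed the filter on low counts that left 15425 genes for testing. The cells were preosteoclasts, meaning osteoclast precursors on the way to fusion, grown for 2 days with the growth factor M-CSF and the osteoclast cytokine RANKL from the bone marrow of female mice aged 2 months by the labels and 3 months by the study's methods. LSD1cKO mice lack the histone demethylase LSD1 (gene Kdm1a) through LysM-Cre, in which the lysozyme promoter drives the recombinase in myeloid cells at large and not in osteoclast precursors alone, and LSD1WT mice were the controls. The 3 cultures per genotype used mandible marrow of mice ligated for 7 days to cause periodontitis, femur marrow of such ligated mice, or femur marrow of mice without a ligature, with 2 libraries for each of the 6 conditions. The study's sources of mice name C57Bl/6J beside the floxed and Cre lines, and whether the controls carried the Cre or the floxed alleles was not given in the sources used here.

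MHC class II molecules display peptides from engulfed protein to CD4 T cells. An alpha and a beta chain pair in the endoplasmic reticulum with the invariant chain, encoded by Cd74, which blocks the peptide groove and steers the complex to endosomes. There cathepsin S trims the invariant chain to a short peptide that H2-DM then exchanges for an antigenic one. Transcription of the class II chains depends on the coactivator CIITA, which interferon gamma induces. Myeloid cells such as monocytes, macrophages and dendritic cells can carry class II molecules, and osteoclasts arise from precursors of the monocyte and macrophage lineage.

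Library totals ranged from 21375805 to 32526751 counts. Levels are given as CPM, a gene's counts scaled to its library's total as adjusted by TMM, a scaling between libraries. On this scale 3 counts corresponded to 0.0927 to 0.154 CPM. Kdm1a was at 61.2 to 71.3 CPM in the 6 LSD1WT libraries and at 15.6 to 24.3 CPM in the 6 LSD1cKO libraries, as the labels would have it. The 12 libraries came from 9 mice, and 3 of the mice contributed a library from each site. Both femur LSD1WT replicate 2 libraries stood apart. The summed level of 10 osteoclast genes, among them Acp5, Ctsk and Mmp9, was 168.2 CPM in the ligated and 238.3 CPM in the unligated one, against 11544.5 to 40906.5 CPM in the other 10 libraries. The summed level of 8 macrophage genes was 10186.9 and 8340.8 CPM in the same pair, against 1593 to 4304 CPM elsewhere. The osteoclast label was therefore borne out by its markers in 10 of the 12 libraries, and genotype differences that rest on the femur LSD1WT groups are also given without replicate 2. Among the other 4 LSD1WT libraries the osteoclast sum was 26090.5 to 40906.5 CPM, and in the LSD1cKO libraries it was 11544.5 to 29103.3 CPM, so osteoclast transcripts also moved with genotype. The part of this difference in the results was not tested, and in bulk RNA fewer cells of a type and less RNA per cell cannot be told apart. The mandible LSD1WT libraries, replicates 1 and 3, were the closest pair, with 12.6% of 11551 genes past the 0.05 limit of a chi-square test between them, against 44.5% to 85.6% in the other pairs. Replicate 3 of this pair is titled mandible but carries a library name that says femur.

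All 8 genes had a higher fitted level in LSD1cKO than in LSD1WT preosteoclasts in each culture, and 1 of them, Cd74, passed the test over the 3 cultures. The median log2 fold change over the 3 cultures was 0.90 for the 8 genes, against -0.06 for all genes tested. The count of 1 of 8 stands beside a background of 3.53% of all genes called, made up of 3% called higher and 0.532% called lower in LSD1cKO. At an unadjusted p under 0.05 the count was 6 of 8, against 16.1% of all genes. With both femur LSD1WT replicate 2 libraries left out, 4 of the 8 were called (Cd74, H2-DMa, H2-DMb1 and Ctss), in a fit that called 24.2% of all genes, and all 10 osteoclast genes were then called lower in LSD1cKO. With all 12 libraries the 4 tested B cell markers had a median log2 fold change of 1.10, on sums of at most 12.7 CPM, and their part in the result was not tested.

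**Figure D1:**
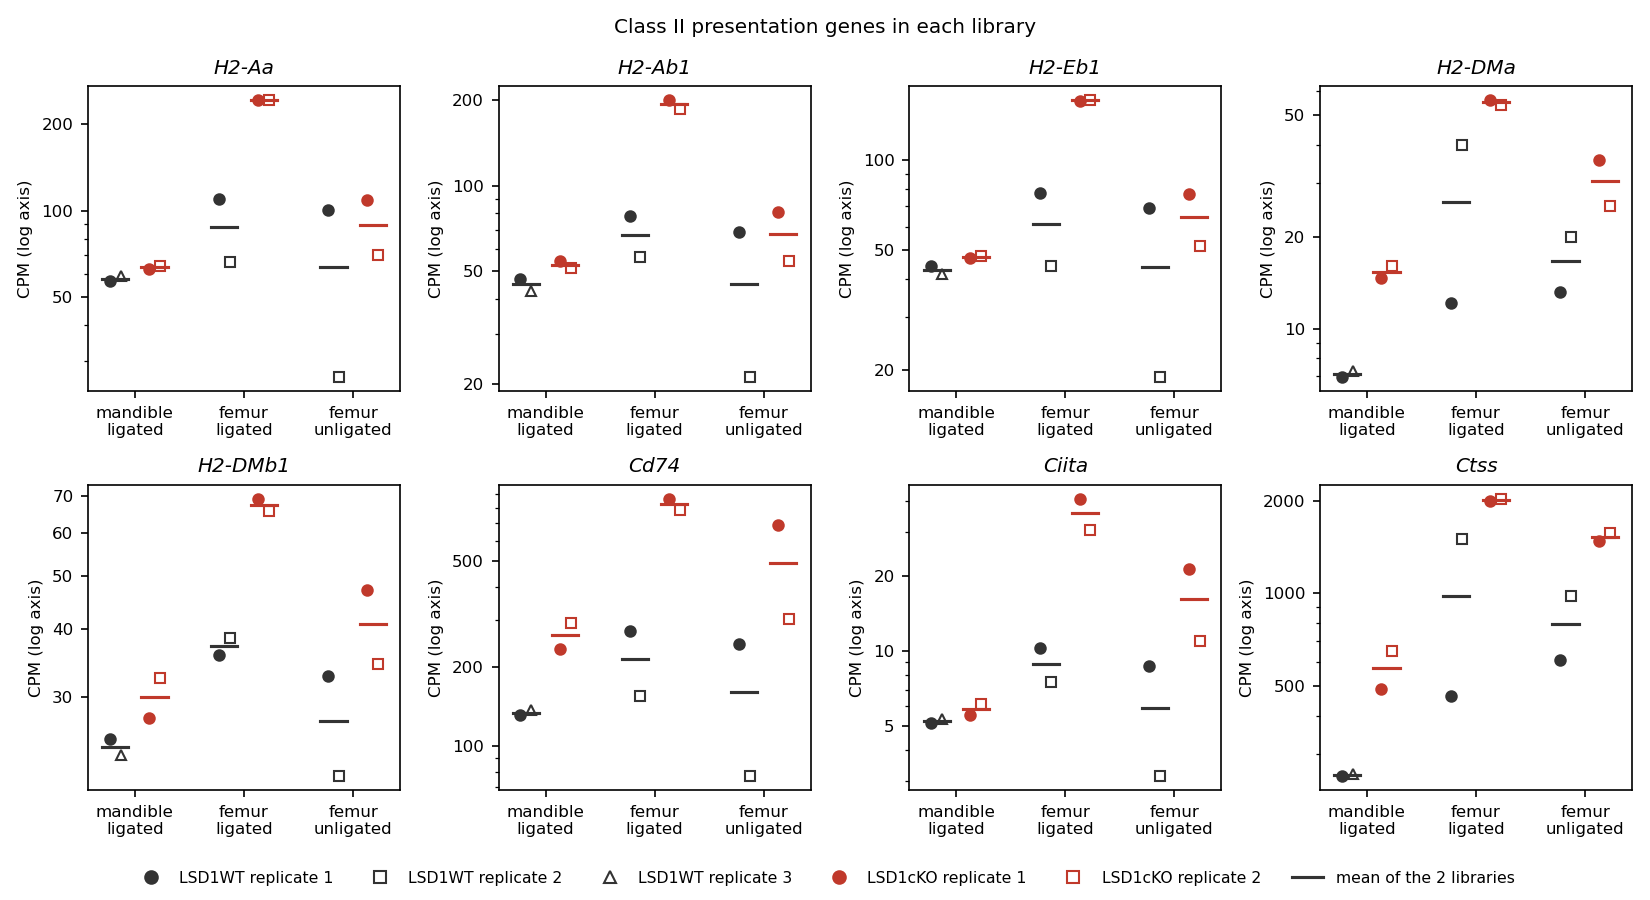
CPM on a log axis for each of the 8 genes in the 12 libraries, by culture, with a bar at the mean of the 2 libraries of a condition. Femur ligated LSD1cKO is the highest condition for every gene, while the mandible pairs lie close together for the class II chains and for Ciita.

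The classical chains form the surface molecule itself: H2-Aa encodes the alpha and H2-Ab1 the beta chain of I-A, and H2-Eb1 encodes the beta chain of I-E. H2-Aa (ENSMUSG00000036594) was at 56.7 and 59.1 CPM in mandible LSD1WT against 62.8 and 64.1 CPM in mandible LSD1cKO. Femur ligated cultures had 110.2 and 66.0 CPM in LSD1WT against 242.5 and 243.4 CPM in LSD1cKO. Femur unligated cultures had 100.8 and 26.3 CPM in LSD1WT against 108.6 and 70.0 CPM in LSD1cKO. The genotypes did not overlap in either ligated culture and overlapped in the unligated femur, where LSD1WT replicate 1 lay between the LSD1cKO libraries. Ordered by mean, femur ligated LSD1cKO (242.9 ± 0.651 CPM, SD, n = 2) stood above the other 5 conditions, which ran from 89.3 ± 27.3 CPM in femur unligated LSD1cKO to 57.9 ± 1.67 CPM in mandible LSD1WT. Neighbours among those 5 differed by less than the spread of at least one of them, except at the bottom, where mandible LSD1cKO (63.4 ± 0.926 CPM) lay above mandible LSD1WT.

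H2-Ab1 (ENSMUSG00000073421) and H2-Eb1 (ENSMUSG00000060586) followed the same order of libraries closely. H2-Ab1 was at 47.1 and 42.8 CPM in mandible LSD1WT, 54.4 and 51.3 CPM in mandible LSD1cKO, 78.3 and 56.1 CPM in femur ligated LSD1WT and 200.9 and 187.2 CPM in femur ligated LSD1cKO. In unligated femur cultures H2-Ab1 was at 69.0 and 21.2 CPM in LSD1WT against 81.2 and 54.6 CPM in LSD1cKO. Its 2 femur ligated LSD1cKO libraries were again far above all others. H2-Eb1 ranged from 18.9 to 77.7 CPM in LSD1WT, with a median of 44.3, and from 47.1 to 158.5 CPM in LSD1cKO, with a median of 64.3. Across the 12 libraries the log2 levels of H2-Aa and H2-Ab1 had a Pearson r of 0.993, and those of H2-Aa and H2-Eb1 of 0.997, over libraries that share mice and cultures. H2-Ea, the alpha chain of I-E, had 0 counts in every library. For I-E, RNA was thus found for the beta chain only, and surface protein was not measured.

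Over the 3 cultures the log2 fold change was 0.69 (SE 0.33) for H2-Aa, 0.78 (SE 0.30) for H2-Ab1 and 0.68 (SE 0.32) for H2-Eb1, and none passed the test, with adjusted p of 0.343, 0.219 and 0.324 by edgeR's quasi-likelihood test. Without both femur LSD1WT replicate 2 libraries these values were 0.34, 0.47 and 0.34, and without both replicate 1 libraries they were 1.07, 1.07 and 1.06. In the ligated femur they were 1.46, 1.53 and 1.37 with all libraries and 1.22, 1.39 and 1.11 without replicate 2. The replicate 2 library of the unligated femur decided the direction there. H2-Aa differed by 0.49 (SE 0.53) on the log2 scale with it and by -0.16 without it, and the corresponding values were 0.59 and -0.01 for H2-Ab1 and 0.55 and -0.09 for H2-Eb1.

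The promoters are shown because the chains moved together across libraries. Windows at RefSeq starts were examined for 5 of the 8 genes, from a promoter table (build GRCm38.p6) of 32851 windows of 300 bases. No window was examined for H2-Ab1, Cd74 or Ciita. Class II promoters are known for an X box, bound by the RFX complex, followed by a Y box, an inverted CCAAT bound by NF-Y. The letters GNAAC followed by ATTGG, with starts 28 to 35 bases apart, were looked for on both strands, and this pattern was chosen with these sequences in view. It occurs in 442 of the 32851 windows, or 1.35%, and ATTGG alone in 37.4%. It was found at H2-Aa, H2-Eb1 and H2-DMb1, with the starts of GNAAC and ATTGG 33, 32 and 33 bases apart, and not in either window of H2-DMa or in that of Ctss. The 130 bases before each start site follow, 5′ to 3′ on the strand of the gene, with the matched letters in capitals.
H2-Aa, chr17:34287824-34287953, minus strand: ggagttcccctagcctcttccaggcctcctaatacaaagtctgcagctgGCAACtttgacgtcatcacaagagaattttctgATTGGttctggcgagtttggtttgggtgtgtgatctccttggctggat
H2-Eb1, chr17:34305737-34305866, plus strand: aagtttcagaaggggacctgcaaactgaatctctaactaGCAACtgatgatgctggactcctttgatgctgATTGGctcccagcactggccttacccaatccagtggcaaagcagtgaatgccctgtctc
H2-DMb1, chr17:34153061-34153190, plus strand: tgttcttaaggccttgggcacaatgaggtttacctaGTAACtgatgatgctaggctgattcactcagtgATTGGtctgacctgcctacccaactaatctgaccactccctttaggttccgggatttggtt
A match describes these letters and not the binding of a factor.

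Ciita (ENSMUSG00000022504), the coactivator that class II transcription requires, was the least abundant of the 8 genes. Its mean level per kb of exon was 0.702 CPM per kb in LSD1WT and 2.02 CPM per kb in LSD1cKO, against 18.4 and 34.7 CPM per kb for H2-Aa. Ciita was at 5.14 and 5.36 CPM in mandible LSD1WT against 5.56 and 6.12 CPM in mandible LSD1cKO. It was at 10.3 and 7.49 CPM in femur ligated LSD1WT against 40.8 and 30.6 CPM in femur ligated LSD1cKO. Unligated femur cultures had 8.71 and 3.15 CPM in LSD1WT against 21.4 and 11 CPM in LSD1cKO. The genotypes did not overlap in any culture, and the gap was narrow for mandible and wide for femur cultures. Ciita had the largest fitted genotype difference of the 8 genes in the ligated femur, at 2.00 on the log2 scale (SE 0.50), and one of the smallest in the mandible, at 0.15 (SE 0.48). The first place held with all 12 libraries only, since H2-DMa (2.27) and Ctss (2.21) exceeded Ciita (1.87) without both femur LSD1WT replicate 2 libraries, and Cd74 (2.42) exceeded it (2.26) without both replicate 1 libraries. In the unligated femur Ciita was at 1.45 with all libraries and 0.91 without replicate 2. Its log2 fold change over the 3 cultures was 1.22 (SE 0.36) and did not pass the test (adjusted p = 0.106 by edgeR's quasi-likelihood test), and was 0.87 without replicate 2. The genotype effect in the mandible minus that in the ligated femur was -1.85 (SE 0.69), with an edgeR adjusted p of 1. The log2 level of Ciita had a Pearson r of 0.941 with H2-Aa over the 12 libraries. Of its exon bases, 3.45% are shared with Dexi on the opposite strand in GENCODE vM21, and whether the authors' counting used strand was not given in the sources used here.

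Cd74 (ENSMUSG00000024610), the invariant chain, was the gene that rose in LSD1cKO. Its mean level per kb was 100.8 CPM per kb in LSD1WT and 313.3 CPM per kb in LSD1cKO. It was at 131.2 and 136.5 CPM in mandible LSD1WT against 233.2 and 292.1 CPM in mandible LSD1cKO. It was at 272.0 and 154.2 CPM in femur ligated LSD1WT against 863.2 and 781.7 CPM in femur ligated LSD1cKO. Unligated femur cultures had 244.2 and 76.9 CPM in LSD1WT against 684.3 and 301.9 CPM in LSD1cKO. The LSD1cKO pair was above the LSD1WT pair in every culture, although femur LSD1WT replicate 1 of either culture exceeded one mandible LSD1cKO library. Over the 3 cultures Cd74 was 2.86-fold higher (log2 fold change 1.51, SE 0.32, edgeR quasi-likelihood adjusted p = 0.0294), higher in 3 of 3 cultures. Its log2 fold change was 0.97 (SE 0.56) in the mandible, 1.95 (SE 0.58) in the ligated and 1.62 (SE 0.57) in the unligated femur, and the femur values were 1.68 and 1.02 without both LSD1WT replicate 2 libraries.

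The call of Cd74 was close to the threshold. Over 21 other settings its log2 fold change stayed between 1.20 and 1.85, and it was called in 12 of them, with adjusted p from 0.000246 (DESeq2) to 0.0721 (edgeR without femur ligated LSD1cKO replicate 2). Among single libraries the call was also lost without mandible LSD1WT replicate 1 (0.0617) or replicate 3 (0.0567), mandible LSD1cKO replicate 2 (0.0654), femur ligated LSD1WT replicate 1 (0.0534), femur ligated LSD1cKO replicate 1 (0.0718) or femur unligated LSD1cKO replicate 1 (0.0608), all edgeR adjusted p. The call was also lost with the mandible LSD1WT pair summed (edgeR adjusted p = 0.0593) and with limma voom and the mouse as a random block (adjusted p = 0.0561). The log2 fold change was 1.20 without both femur LSD1WT replicate 2 libraries, and the edgeR adjusted p was 0.00357.

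**Figure D2:**
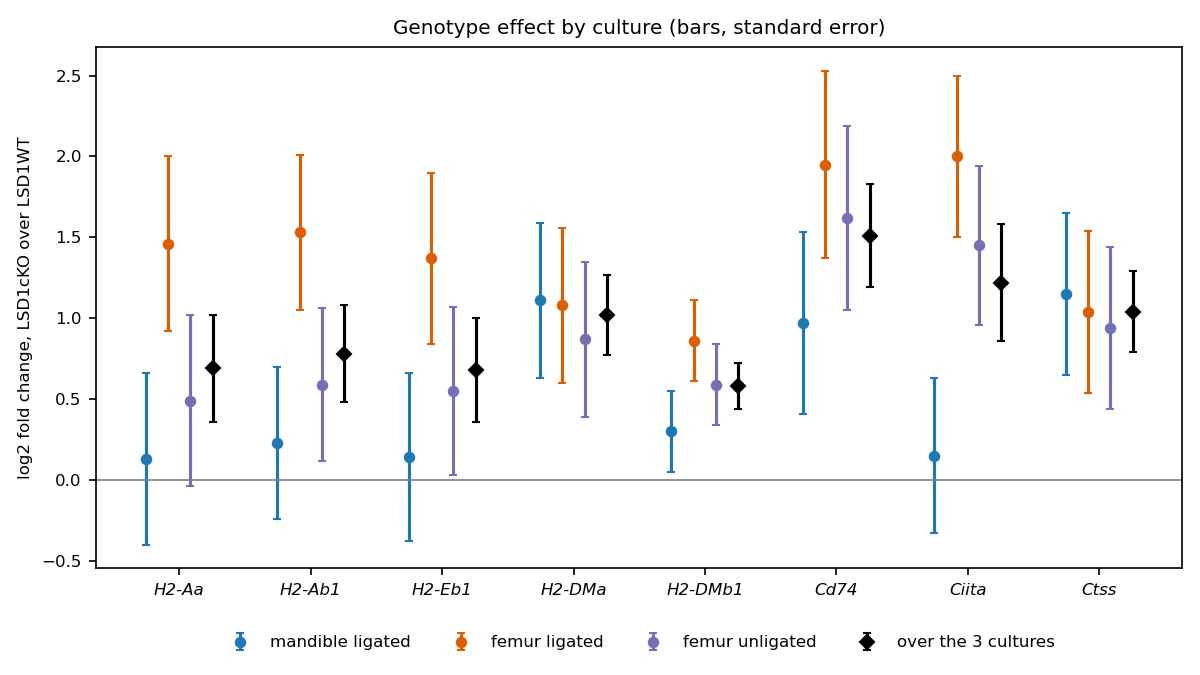
Log2 fold change of LSD1cKO over LSD1WT for each gene in the 3 cultures and over all of them, with bars of 1 standard error. The class II chains and Ciita sit between 0.13 and 0.23 for mandible cultures and between 1.37 and 2.00 in the ligated femur, while H2-DMa and Ctss sit between 0.87 and 1.15 in every culture. These positions are for all 12 libraries, and in the ligated femur H2-DMa and Ctss were at 2.27 and 2.21 without both LSD1WT replicate 2 libraries and at 0.47 and 0.43 without both replicate 1 libraries.

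Cd74 also differed from the class II chains within libraries. The ratio of Cd74 to H2-Aa counts was 2.31 and 2.31 in mandible LSD1WT, 3.71 and 4.56 in mandible LSD1cKO, 2.47 and 2.33 in femur ligated LSD1WT and 3.56 and 3.21 in femur ligated LSD1cKO. The unligated femur had ratios of 2.42 and 2.93 in LSD1WT and 6.30 and 4.31 in LSD1cKO. All 6 LSD1cKO ratios therefore lay above all 6 LSD1WT ratios, also with the femur LSD1WT replicate 2 libraries included. With all 12 libraries, Cd74 was the only one of the other 7 genes to separate the genotypes in this way, against 0.473% of 15424 genes. The same held with H2-Ab1 as the reference, where the ratio of Cd74 was 2.75 to 3.64 in LSD1WT and 4.18 to 8.43 in LSD1cKO (0.402% of genes), and with H2-Eb1, where it was 2.96 to 4.07 and 4.93 to 8.90 (0.506% of genes). Without both femur LSD1WT replicate 2 libraries, the ratios of H2-DMa and Ctss to H2-Aa separated the genotypes as well. H2-DMa was then at 0.11 to 0.131 in LSD1WT and 0.222 to 0.36 in LSD1cKO. For Ctss the ranges were 4.2 to 6.04 and 7.78 to 22.5. The share of all genes that did so without these libraries was not counted. With all 12 libraries the ratio of H2-Ab1 to H2-Aa was 0.685 to 0.849 in LSD1WT and 0.747 to 0.866 in LSD1cKO, so the ratio of the chains varied little. These ratios were chosen after the values were seen and show unequal change, not which gene of a pair moved.

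**Figure D3:**
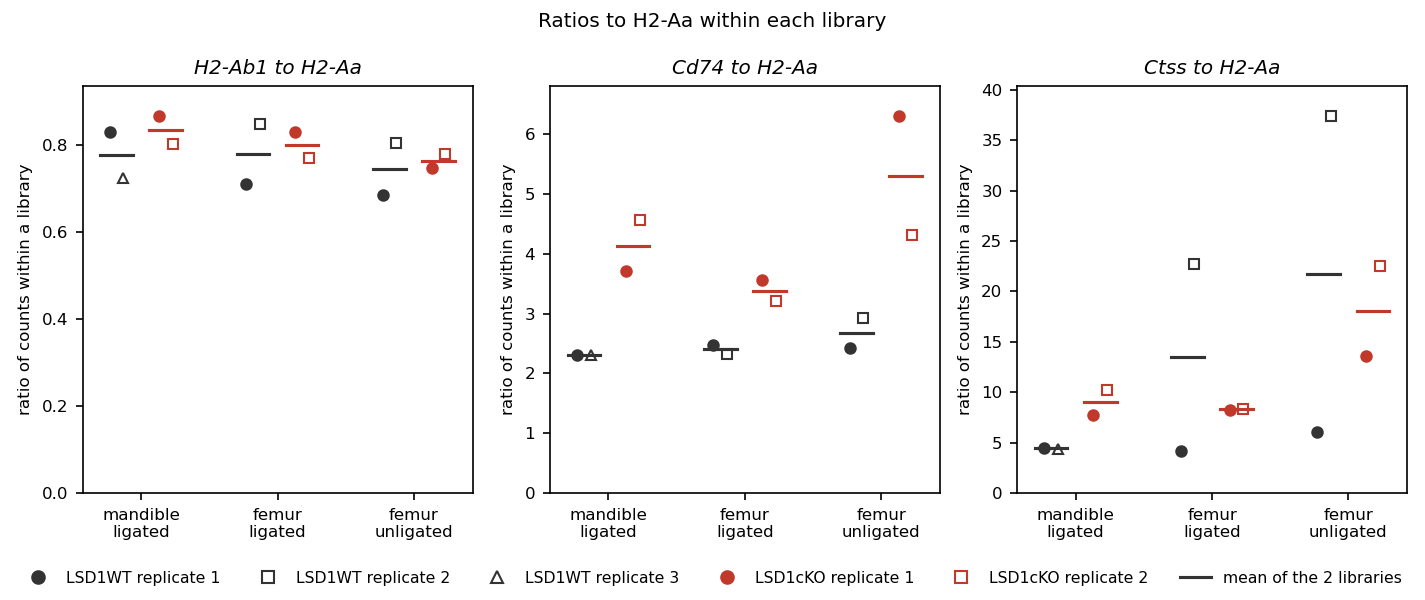
Ratio of the counts of H2-Ab1, Cd74 and Ctss to those of H2-Aa within each library, from 0, with a bar at the mean of 2 libraries. The 6 LSD1cKO ratios of Cd74 (3.21 to 6.30) lie above the 6 LSD1WT ratios (2.31 to 2.93), while those of H2-Ab1 and Ctss overlap. Only the femur LSD1WT replicate 2 libraries, at 22.7 and 37.4, bring the Ctss ratios to overlap.

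H2-DMa and H2-DMb1 encode the chains of H2-DM, the catalyst of peptide exchange. H2-DMa (ENSMUSG00000037649) was at 6.94 and 7.27 CPM in mandible LSD1WT against 14.7 and 16.0 CPM in mandible LSD1cKO. It was at 12.1 and 39.9 CPM in femur ligated LSD1WT, 56.1 and 53.9 CPM in femur ligated LSD1cKO, 13.2 and 20.0 CPM in femur unligated LSD1WT and 35.7 and 25.2 CPM in femur unligated LSD1cKO. The genotypes did not overlap in any culture, and the femur LSD1WT replicate 2 libraries were the higher ones of their pairs. H2-DMb1 (ENSMUSG00000079547) moved less, from 21.5 to 38.5 CPM in LSD1WT (median 29.0) and from 27.5 to 69.3 CPM in LSD1cKO (median 40.8). The log2 fold change over the 3 cultures was 1.02 (SE 0.25) for H2-DMa and 0.58 (SE 0.14) for H2-DMb1, with edgeR adjusted p of 0.0540 and 0.0561, just outside the threshold. DESeq2 called both, with adjusted p of 0.00311 and 0.00726. Without both femur LSD1WT replicate 2 libraries edgeR called both as well, at 1.47 and 0.51. In the ligated femur H2-DMa was at 1.08 (SE 0.48) with all libraries, 2.27 without replicate 2 and 0.47 without replicate 1 of LSD1WT, and in the unligated femur at 0.87 with all and 1.21 without replicate 2. H2-DMb1 was at 0.86 and 0.59 in the ligated and unligated femur with all libraries and at 1.00 and 0.33 without replicate 2. The 2 chains differed in mean level per kb, with 4.81 and 9.75 CPM per kb for H2-DMa and 17.6 and 27.4 CPM per kb for H2-DMb1 in LSD1WT and LSD1cKO. Before scaling to length (3448 and 1681 bases) the means were 16.6 and 33.6 CPM for H2-DMa and 29.6 and 46.1 CPM for H2-DMb1. In femur LSD1WT replicate 2 the CPM of H2-DMa and H2-DMb1 were close, at 39.9 and 38.5 (ligated) and 20.0 and 21.5 (unligated). H2-DMa shares 10.4% of its exon bases with Brd2 on the opposite strand, and H2-DMb1 has the near-identical copy H2-DMb2, so that both counts are uncertain to that extent.

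Ctss (ENSMUSG00000038642), cathepsin S, the protease that trims the invariant chain, was the most abundant of the 8 genes at a mean of 499 CPM per kb in LSD1WT and 1009.8 CPM per kb in LSD1cKO. It was at 254.1 and 258.5 CPM in mandible LSD1WT against 488.4 and 650.9 CPM in mandible LSD1cKO. It was at 463.1 and 1498.9 CPM in femur ligated LSD1WT against 2000.4 and 2031.0 CPM in femur ligated LSD1cKO. Unligated femur cultures had 608.3 and 982.7 CPM in LSD1WT against 1480.1 and 1577.1 CPM in LSD1cKO. The genotypes did not overlap in any culture. Over the 3 cultures the log2 fold change was 1.04 (SE 0.25), with an edgeR adjusted p of 0.0531, and DESeq2 called it at an adjusted p of 0.00169. Its values by culture were 1.15 (SE 0.50) in the mandible, 1.04 (SE 0.50) in the ligated and 0.94 (SE 0.50) in the unligated femur. In the ligated femur the value was 2.21 without both LSD1WT replicate 2 libraries and 0.43 without both replicate 1 libraries, and in the unligated femur it was 1.34 without replicate 2. Over the 3 cultures it was 1.5 without replicate 2.

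The promoter of Ctss is shown because it lacked the GNAAC and ATTGG arrangement and held, alone among the windows of the 5 genes, the letters GAAA, any 2 bases and GAAA again, a form of the interferon-stimulated response element. These letters occur on either strand in 1131 of the 32851 windows, or 3.44%, and start 21 bases before the Ctss start site. The 130 bases before the start are given with them in capitals.
Ctss, chr3:95526656-95526785, plus strand: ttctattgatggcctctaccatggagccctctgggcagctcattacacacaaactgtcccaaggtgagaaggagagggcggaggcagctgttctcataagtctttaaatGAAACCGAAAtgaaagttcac

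The 8 genes thus showed different patterns across the control libraries. In the femur, LSD1WT replicate 2 had lower levels than replicate 1 for the chains, Cd74 and Ciita, and higher levels for H2-DMa and Ctss. The ratio of replicate 2 to replicate 1 was 0.599 (ligated) and 0.261 (unligated) for H2-Aa and 0.726 and 0.362 for Ciita. It was 3.29 and 1.51 for H2-DMa and 3.24 and 1.62 for Ctss. H2-DMa and Ctss had a Pearson r of 0.972 over the 12 libraries, whereas H2-Aa and Ctss had an r of 0.475. Replicate 2 is also the pair with the low osteoclast and high macrophage sums given above, and the part of cell composition in these differences was not tested.

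**Figure D4:**
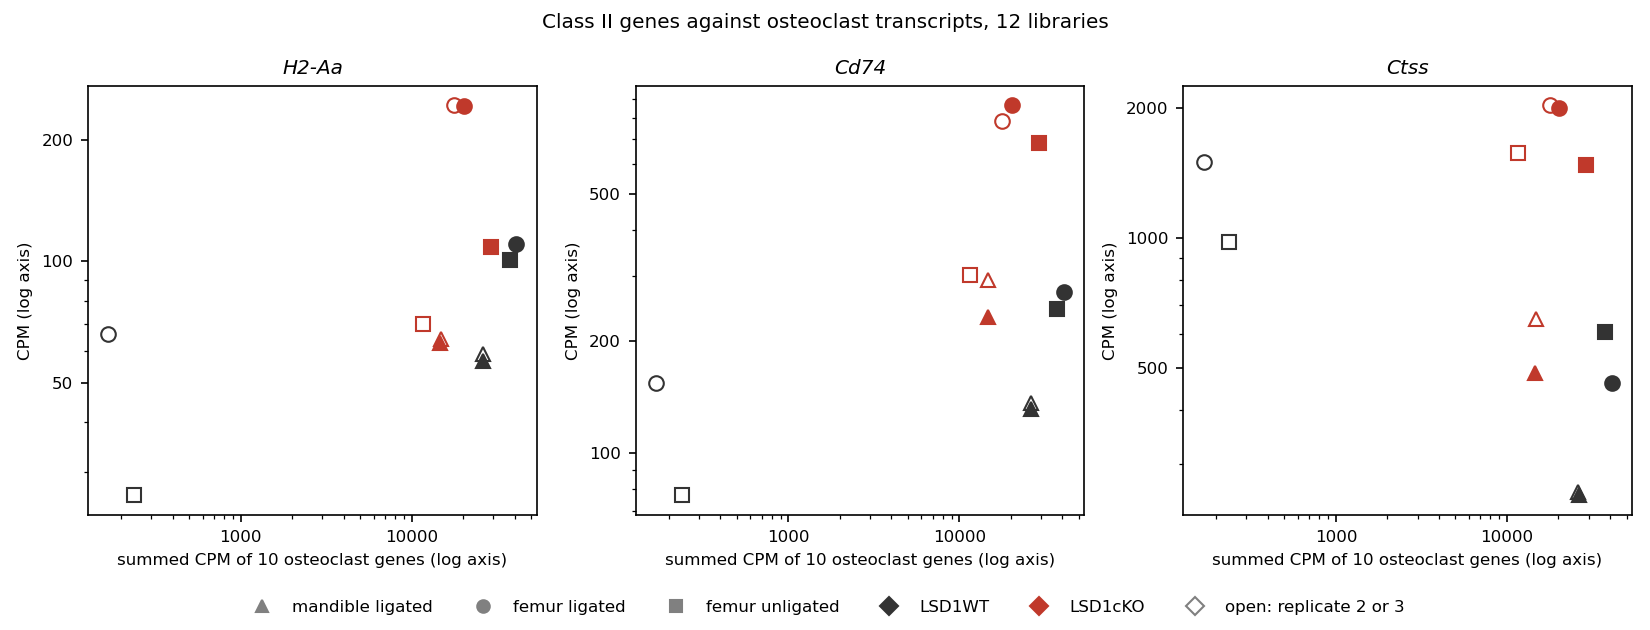
CPM of H2-Aa, Cd74 and Ctss against the summed CPM of 10 osteoclast genes, log axes, for the 12 libraries. The open LSD1WT circle and square at 168.2 and 238.3 CPM are femur replicate 2, of which the unligated one is the lowest LSD1WT library for H2-Aa and Cd74 and both are the highest LSD1WT libraries for Ctss.

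Within single cultures no gene of the 8 passed the edgeR test. In the mandible 0 of 8 were called by edgeR, against 0% of all genes, and 0 by DESeq2, against 0.947%, while H2-DMa (1.11, SE 0.48) and Ctss (1.15, SE 0.50) had an unadjusted p under 0.05, against 4.82% of genes. In the ligated femur 0 of 8 were called, against 0.00648%, and 6 had an unadjusted p under 0.05, against 6.88%. DESeq2 called Ciita there, at an adjusted p of 0.0130, and 1.41% of all genes. In the unligated femur 0 of 8 were called by either tool, against 0% of genes by edgeR and 0.791% by DESeq2, and H2-DMb1 (0.59, SE 0.25), Cd74 and Ciita had an unadjusted p under 0.05, against 4.95%. The mandible result depended on which libraries shared the estimate of spread. Fitted on the 4 mandible libraries alone, edgeR called 5 of 8 (H2-Ab1, H2-DMa, H2-DMb1, Cd74 and Ctss) and 5434 of 14403 genes. Without both femur LSD1WT replicate 2 libraries, edgeR called 2 of 8 in the mandible, 7 of 8 in the ligated and 2 of 8 in the unligated femur, with 936, 1497 and 396 of 16008 genes called.

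By separation alone, both LSD1cKO libraries lay above both LSD1WT libraries for all 8 genes in the mandible, where 34.1% of all genes did so, and likewise for all 8 in the ligated femur (14.8% of genes). In the unligated femur this held for 5 of 8 (H2-DMa, H2-DMb1, Cd74, Ciita and Ctss), against 9.82% of genes. The same 5 genes did so in all 3 cultures, against 5.17% of genes. None of the 8 separated all 6 LSD1cKO from all 6 LSD1WT libraries, against 1.98% of genes.

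The site comparison asked how mandible and femur cultures of ligated mice differed within a genotype. All 8 genes had lower fitted levels in the mandible than in the femur in both genotypes, and none passed the test. In LSD1WT 0 of 8 were called, against 0% of genes, and H2-DMa (-1.87, SE 0.49), H2-DMb1 (-0.61, SE 0.25) and Ctss (-1.94, SE 0.51) had an unadjusted p under 0.05, against 19.8%. The values of H2-DMa and Ctss were -0.74 and -0.82 without both femur LSD1WT replicate 2 libraries. H2-Ab1, Cd74 and Ciita were at -0.58, -0.67 and -0.76 with all libraries and at -0.77, -0.99 and -0.94 without replicate 2. In LSD1cKO 0 of 8 were called, against 0% of genes, and 8 of 8 had an unadjusted p under 0.05, against 15%. The log2 differences in LSD1cKO were -1.88 (SE 0.48) for H2-Ab1, -1.84 (SE 0.49) for H2-DMa, -1.65 (SE 0.57) for Cd74, -2.61 (SE 0.51) for Ciita and -1.82 (SE 0.51) for Ctss. In LSD1cKO, DESeq2 called 7 of 8 and 5.25% of all genes, and edgeR called 8 of 8 without both femur LSD1WT replicate 2 libraries, in a fit that called 3466 of 16008 genes. These LSD1cKO libraries are pairs from the same 2 mice, 4 libraries in all, so mouse and replicate number coincide. The difference between the genotype effects of the 2 sites passed for none of the 8 by edgeR, against 0% of genes, or by DESeq2, against 0.00648%. Only Ciita had an unadjusted p under 0.05, against 0.966%.

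The ligature comparison set femur cultures of ligated mice against those of unligated mice. All 8 genes had higher fitted levels in ligated than in unligated cultures in both genotypes, and none passed the test. In LSD1cKO 0 of 8 were called by edgeR or DESeq2, against 0% and 0.00648% of genes, and 5 had an unadjusted p under 0.05, against 0.959%. Their log2 differences were 1.44 (SE 0.54) for H2-Aa, 1.52 (SE 0.48) for H2-Ab1, 1.29 (SE 0.53) for H2-Eb1, 0.73 (SE 0.25) for H2-DMb1 and 1.14 (SE 0.48) for Ciita, and the other 3 were 0.85 (SE 0.48) for H2-DMa, 0.74 (SE 0.56) for Cd74 and 0.40 (SE 0.49) for Ctss. In LSD1WT 0 of 8 were called by either tool, against 0% of genes by edgeR and 0.013% by DESeq2, and 0 had an unadjusted p under 0.05, against 0.765%. The values in LSD1WT were 0.58 (SE 0.47) for H2-Ab1, 0.64 (SE 0.48) for H2-DMa, 0.41 (SE 0.56) for Cd74, 0.59 (SE 0.48) for Ciita and 0.30 (SE 0.49) for Ctss. Without both replicate 2 libraries H2-DMa and Ctss were lower in ligated LSD1WT cultures, at -0.18 and -0.45, and H2-Ab1, Cd74 and Ciita were at 0.13, 0.10 and 0.19. The difference between the genotype effects of ligated and unligated femurs passed for none of the 8, against 0% of genes, and no gene of the 8 had an unadjusted p under 0.05, against 0.344%. The genotype comparisons and the site and ligature comparisons share libraries.

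Other genes of class II presentation were counted over the 3 cultures, in the fit that called 3% of all genes higher and 0.532% lower. Of 4 tested accessory chains, 2 were called higher and none lower. H2-Oa, the alpha chain of H2-DO, an inhibitor of H2-DM, was at 0.530 and 1.10 CPM in mandible LSD1WT against 2.03 and 2.47 CPM in mandible LSD1cKO. In the ligated femur H2-Oa was at 0.938 and 0.564 CPM in LSD1WT against 2.25 and 2.89 CPM in LSD1cKO, and in the unligated femur at 0.496 and 0.207 CPM and at 2.07 and 1.69 CPM. All 6 LSD1cKO values of H2-Oa were above all 6 LSD1WT values, and it rose by a log2 fold change of 1.85 (SE 0.30, edgeR adjusted p = 0.00837). H2-Ob, its partner, had a log2 fold change of 0.48 (SE 0.38) and H2-DMb2 of 0.99 (SE 0.35), and neither passed. H2-Eb2 was also called, at an edgeR adjusted p of 0.0227, on 0 to 3 counts per library in LSD1WT and 4 to 15 in LSD1cKO. H2-Oa was the 1 accessory chain called without both femur LSD1WT replicate 1 libraries, against 3.9% of all genes. Without both replicate 2 libraries 3 were called (H2-Oa, H2-DMb2 and H2-Eb2), against 24.2% of all genes. The windows of H2-Oa, H2-Ob and H2-Eb2 held the GNAAC and ATTGG arrangement, at 33, 30 and 32 bases, and that of H2-DMb2 did not.

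Of 8 genes of endosomal processing none was called, with 5 fitted higher and 3 lower. Sppl2a, which cleaves the last fragment of the invariant chain, had the highest log2 fold change at 0.47 (SE 0.16), and Ctsb, cathepsin B, the lowest at -1.08 (SE 0.48). Ifi30, a thiol reductase, was at 0.16 (SE 0.49), Ctsl at 0.23 (SE 0.29), Cst3, the cathepsin inhibitor cystatin C, at 0.34 (SE 0.20), and Lgmn, legumain, at -0.67 (SE 0.61). Of the 2 ubiquitin ligases that drive class II turnover, Marchf1 was at 0.59 (SE 0.58) and Marchf8 at -0.35 (SE 0.22), and neither was called. DESeq2 called 1 of the processing genes, Sppl2a. Lgmn, Ctsl, Sppl2a and Marchf1 were called higher in LSD1cKO without both femur LSD1WT replicate 2 libraries. That fit called 24.2% of all genes and turned the direction of Lgmn.

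Of 10 transcription factors of class II genes none was called by edgeR, with 3 fitted higher, 7 lower and a median of -0.05. Rfx5, the X box subunit, had the highest log2 fold change at 0.37 (SE 0.12) and was the 1 gene of this list that DESeq2 called. Irf8 had the lowest at -0.29 (SE 0.58), Spi1, encoding PU.1, was at 0.11 (SE 0.21), and Prdm1, encoding the repressor Blimp1, was at -0.17 (SE 0.63). When both femur LSD1WT replicate 2 libraries were left out, 4 of the 10 were called, against 24.2% of all genes. Of these, 3 were higher and 1 lower, and Irf8 and Prdm1 were among them. Their values above are thus for all 12 libraries only. The median of Irf8 was 24.7 CPM in LSD1WT (highest 232.5) and 53.2 CPM in LSD1cKO. That of Prdm1 was 219.3 CPM in LSD1WT (lowest 12.6) and 138 CPM in LSD1cKO.

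Of 7 tested genes of interferon gamma signalling, 2 rose and none fell, against 3% of all genes called higher. Among those that rose, Socs1, the feedback inhibitor, was at 1.49 to 2.52 CPM in LSD1WT and at 3.43 to 6.09 CPM in LSD1cKO without overlap, with a log2 fold change of 1.17 (SE 0.23, edgeR adjusted p = 0.0199). Irf1 was at 0.62 (SE 0.19), Ifngr1 at 0.18 (SE 0.27) and Jak1, the lowest, at -0.18 (SE 0.21), none of which passed. Ifng itself had 0 counts in every library. Of the 7 genes, 5 were called higher without both femur LSD1WT replicate 2 libraries, against 24.2% of all genes called. Without both replicate 1 libraries only Socs1 was called, against 3.9% of all genes.

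Of 6 costimulatory genes 1 rose, Cd80 (0.91, SE 0.20, edgeR adjusted p = 0.0346), a ligand of CD28. Cd274, encoding PD-L1, had the highest log2 fold change at 1.63 (SE 0.45), and Icosl the lowest at -1.06 (SE 0.85), and neither passed. Of 10 class I presentation genes 6 rose and none fell, with a median of 0.77. The costimulatory and class I counts stand beside 3% of all genes called higher. The largest change was that of Nlrc5, the class I counterpart of Ciita, at 1.5 (SE 0.25, edgeR adjusted p = 0.00866), and the smallest was H2-D1 at 0.31 (SE 0.20), which did not pass. Without both femur LSD1WT replicate 1 libraries 3 class I genes and no costimulatory gene were called, against 3.9% of all genes. Without both replicate 2 libraries 9 class I and 5 costimulatory genes were called, against 24.2% of all genes. All of these were higher in LSD1cKO, Icosl with its direction turned.

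**Figure D5:**
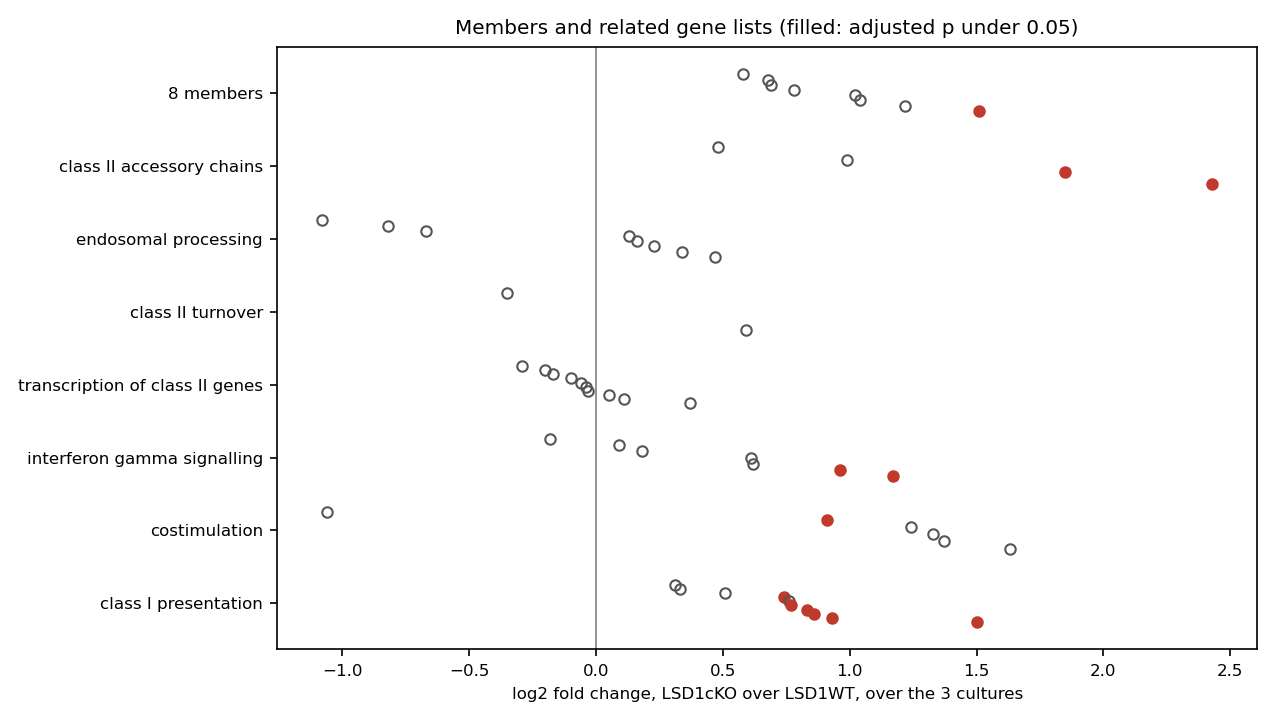
Log2 fold change of LSD1cKO over LSD1WT over the 3 cultures for the 8 genes and 7 related lists, 1 point per tested gene, filled where the edgeR adjusted p was under 0.05. Filled points appear in the accessory chains, interferon gamma signalling, costimulation and class I lists, 11 beside Cd74, and in none of the processing, turnover or transcription lists. The rightmost point is H2-Eb2, whose LSD1WT libraries hold 0 to 3 counts.

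Markers of other cells that carry class II molecules were also counted. Of 10 dendritic cell genes none was called among the 9 tested, and their summed level was 19.5 to 95.5 CPM in LSD1WT and 24.8 to 70.2 CPM in LSD1cKO. By culture the dendritic cell sums were 22.2 to 22.5 CPM in mandible LSD1WT and 24.8 to 27.5 CPM in mandible LSD1cKO, and for the ligated femur 41.4 and 95.5 CPM in LSD1WT and 65.3 to 70.2 CPM in LSD1cKO. The 8 B cell genes summed to 0.807 to 12.7 CPM in LSD1WT and 2.38 to 11.9 CPM in LSD1cKO, with none of 4 tested called by edgeR, and the defining gene Pax5 had at most 30 counts in a library. All 4 were fitted higher in LSD1cKO, with a median of 1.10 beside 0.90 for the 8 class II genes, and DESeq2 called Ms4a1. By culture the B cell sums were 1.35 and 0.807 CPM in mandible LSD1WT against 2.64 and 2.38 CPM in mandible LSD1cKO, 1.97 and 12.7 against 6.49 and 7.36 CPM in the ligated femur, and 3.09 and 6.75 against 4.67 and 11.9 CPM in the unligated femur. The 6 T cell genes summed to 4.16 to 18 CPM in LSD1WT and 3.37 to 16 CPM in LSD1cKO, with neither of 2 tested called. Of these, Cd3e, Cd3d, Cd3g and Cd8a had at most 2 counts in any library, Cd4 up to 358 and Trac up to 145. Single markers were named after their values were seen. The sum of 8 neutrophil genes was 88.3 to 273.9 CPM in LSD1WT and 136.5 to 301.4 CPM in LSD1cKO, with none of 7 tested called. With all 12 libraries none of the 8 macrophage or 10 osteoclast genes was called. Without both femur LSD1WT replicate 2 libraries Clec10a, Cd22, Cd79b, Adgre1 and Fcgr1 were among the genes of these lists called higher in LSD1cKO, beside the osteoclast genes that were called lower. The part of these cells in the class II levels was not tested.

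Apart from the 8 themselves, the genes whose log2 levels most resembled the mean of H2-Aa, H2-Ab1, H2-Eb1 and Cd74 over the 12 libraries were Plbd1 (Pearson r 0.974), Golph3l (0.958), Ak8 (0.955), Mamdc2 (0.952), Apol7c (0.942), Arl5a (0.939), Kynu (0.937) and Cst3 (0.936). Those most like Ctss were Trim30a (0.994), Igtp, an interferon-induced GTPase (0.993), and Gvin-ps7 (0.992). These correlations rest on 12 libraries that share mice, genotype and culture. Kynu, encoding kynureninase, and Igtp were the 2 of these 11 genes called in LSD1cKO, against 3.53% of all genes. Their log2 fold changes were 2.14 (edgeR adjusted p = 0.0128) and 1.41 (edgeR adjusted p = 0.0357).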

How the data were processed

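RNA was sequenced in bulk from 12 libraries, 6 per genotype. The authors deposited raw counts per gene, not normalized, for GRCm39. The submitters' processing notes name HISAT2 2.1.0, FastQC, featureCounts and edgeR without their roles or settings, and give no strand setting. Counts were analysed with R 4.3.3, edgeR 4.0.16 (filterByExpr, TMM scaling, quasi-likelihood test, Benjamini-Hochberg adjustment over 15425 genes, threshold 0.05), limma 3.58.1 and DESeq2 1.42.0. The effect over 3 cultures had culture and genotype as terms, and the other comparisons a term for each of 6 conditions. Level correlations used log2 CPM with a prior count of 2. CPM per kb used GENCODE vM21 exon lengths, with all annotated exons of a gene merged. Libraries of a condition carry different mouse numbers, and 3 mice gave 2 libraries each to the fit over 3 cultures. Mandible and femur libraries of ligated mice with the same number are from the same mouse. This holds for numbers 1 and 2 in LSD1cKO (correlation of deviations 0.026) and number 1 in LSD1WT. With limma voom and the mouse as a random block, the correlation within a mouse was 0.519 in the fit over 3 cultures. It was -0.391 in the fit by condition, and the edgeR fits had no term for the mouse. In 6 pairs of conditions across genotypes the correlation of same-numbered libraries was -0.0292 to 0.278 and not over 0.1 in every pair, so across genotypes the numbers were not taken as pairs, and between the femur LSD1WT conditions it was 0.78. The named genes were the 8 members, Kdm1a, the extremes of each list with 15 fixed genes, and the 11 most similar genes. Members and lists were chosen with earlier results of these data known. Some genes of the lists enter the counts and sums but are not reported here by name. The fits were also run on simulated counts without culture effects, shared mice or outlying libraries, so that run did not test how they handle these. Promoters are from RefSeq.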

Additional observations from a re-analysis of the deposited data

How the results depend on the processing

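At 21375805 to 32526751 counts per library H2-Eb2 in LSD1WT was at or under the floor of 3 counts. The share of all genes called in the same fit stands in brackets. Over the 3 cultures, where 1 of 8 genes was called, the count was 5 with DESeq2 (8.09%), 3 with RLE scaling (3.62%), 5 with every gene of 1 count or more (2.39%), 0 with the mandible LSD1WT pair summed (2.07%), 4 without both femur LSD1WT replicate 2 libraries (24.2%), 3 without both replicate 1 libraries (3.9%), 0 with limma voom and the mouse as a random block (2.48%), and 0 to 3 with single libraries left out (1.84% to 4.05%). With a replicate block it was 2 (Cd74 and Ciita, 2.61%), and the replicate block changed no other count of the 8 genes called. All 8 genes kept a higher level in LSD1cKO over the 3 cultures in each of the 21 settings. In the mandible the count was 5 on the compared libraries alone (37.7%), 2 without both femur LSD1WT replicate 2 libraries (5.85%) and 2 without both replicate 1 libraries (5.46%). In the ligated femur it was 1 with DESeq2 (1.41%), 7 without the replicate 2 libraries (9.35%) and 6 without the replicate 1 libraries (26.4%), and in the unligated femur 2 (2.47%) and 6 (23.3%). For mandible against femur it was, in LSD1WT, 2 with DESeq2 (7.71%), 2 with every gene (3.02%), 3 without the replicate 1 libraries (46.5%) and 0 to 2 with single libraries left out (0% to 23.2%). In LSD1cKO it was 7 with DESeq2 (5.25%), 4 with every gene (1.21%), 8 on the compared libraries alone (42.1%), 8 without the replicate 2 libraries (21.7%), 8 without the replicate 1 libraries (21.6%) and 0 to 4 with single libraries left out (0% to 4.25%). Without the replicate 1 libraries it was 2 for the ligature in LSD1WT (4.25%) and 4 for the difference in genotype effect between sites (21.5%). Directions reversed in the unligated femur for H2-Aa, H2-Ab1 and H2-Eb1 (-0.16, -0.01 and -0.09 without both replicate 2 libraries, and with single libraries left out -0.16 to 1.84, -0.01 to 1.75 and -0.09 to 1.84). For the ligature in LSD1WT, Ctss was at -0.12 with mandible replicate 3 counted as femur and at -0.45, and H2-DMa at -0.18, without both replicate 2 libraries. With single libraries left out the ligature values ran from -0.25 to 1.48 for Cd74, -0.46 to 1.24 for H2-DMa, -0.78 to 0.90 for Ctss, -0.09 to 1.68 for H2-Ab1 and -0.02 to 1.51 for Ciita. The settings for the related lists were chosen after seeing the data. The cause of these changes was not tested.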
